A study of Mus musculus with 3 samples.

Results

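GABA-A receptors are the chloride channels through which GABA inhibits most neurons, and the 7 genes described here, Gabra2, Gabra3, Gabra4, Gabra5, Gabrb1, Gabrb2 and Gabrg3, encode subunits of 3 of their classes. They were taken by name out of 31053 genes measured in single sorted cells of the mouse neocortex. Cells came from Sst-Cre; RCEloxP mice, in which Cre made under the somatostatin gene switches on a green fluorescent reporter, so that a sorted cell carries a record of Sst expression and need not express Sst at the time of sorting. There was 1 droplet library for each stage, from the pooled tissue of 6 animals at E16.5, 3 animals at P1 and 3 animals at P5. No other genotype or treatment entered the comparison, but the tissue was not handled alike: trypsin was added during dissociation at P5 alone, and myelin was taken out on a Percoll layer at P1 and P5 but not at E16.5. Stage, library and these steps cannot be told apart. Cells with more than 700 genes and under 10% mitochondrial UMIs were kept, and 2 groups were set by single genes. Nos1 cells held at least 1 Nos1 UMI, and numbered 67, 434 and 547 at E16.5, P1 and P5. Lhx6 cells held at least 1 Lhx6 UMI and no Nos1 UMI, and numbered 3269, 1606 and 1874. The question was how the subunit make-up of these groups differed within each library and from library to library.

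A GABA-A receptor is a ring of 5 subunits, usually of alpha, beta and gamma type. The alpha subunit sets much of the receptor's affinity, kinetics and place on the cell, GABA binds between alpha and beta subunits, and the gamma subunit contributes to synaptic clustering and to the site where benzodiazepines act. Receptors with alpha2 or alpha3 are typical of the immature forebrain, and in many regions they give way to other alpha subunits as circuits mature. Neuronal nitric oxide synthase, the product of Nos1, marks the cortical somatostatin neurons with long-range axons, and Lhx6 is a transcription factor of interneurons born in the medial ganglionic eminence.

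The libraries held 4478, 4440 and 3406 cells, of which 88.3%, 56.3% and 87.5% were kept, and between 1 and 2 cell barcodes were shared by any pair of libraries among kept cells. The summed depth was 594151 to 1969528 UMIs in the 3 groups of Nos1 cells and 8009491 to 21231252 UMIs in the 3 groups of Lhx6 cells. Sst was found in 82.1% to 96.0% of Nos1 cells and 70.9% to 76.3% of Lhx6 cells. Chodl was at 42.1, 284 and 399 CPM in Nos1 cells and 12.1 CPM or less in Lhx6 cells. CPM are the UMIs of a gene scaled to the same total of UMIs in every group. At E16.5 there were 25 Chodl UMIs in Nos1 cells, in 22.4% of cells, and 153 in Lhx6 cells, in 2.26%. Whether the Nos1 gate takes the same cells at each stage was not tested. Gad1 was found in 59.7%, 61.3% and 45.5% of Nos1 cells and 70.8%, 58.8% and 47.1% of Lhx6 cells. Gad2 was found in fewer Nos1 cells, 35.8%, 54.1% and 61.1%, against 78.5%, 73.3% and 76.0% of Lhx6 cells. Markers of other cells were not equal between the groups. Neurod6, Neurod2 and Slc17a7, markers of excitatory neurons, were all detected and summed to 545, 136 and 5.60 CPM in Nos1 cells at E16.5, P1 and P5, against 6.92, 7.12 and 2.16 CPM in Lhx6 cells. At E16.5 they were present in 22.4% of Nos1 cells and at P1 in 4.61%, and each member call below that changes when those cells are left out is given both ways. No doublet caller was run on these cells, the sources used here name no removal of doublets, and the part of doublets in these values was not tested. Astrocyte markers stood at no more than 0.508 CPM and oligodendrocyte precursor markers at no more than 0.509 CPM, microglial markers at no more than 1.68 CPM and endothelial markers at no more than 3.55 CPM. The levels below are in CPM, with exact Poisson 95% intervals that cover counting error only. With 1 library for each stage there is no replicate check and no test was made, and a ratio compares these cells of these libraries.

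The genes lie in 4 places of the genome (GRCm38, GENCODE M21 gene models). Gabra2 (ENSMUSG00000000560, chr5:70957597-71095849, minus strand), Gabra4 (ENSMUSG00000029211, chr5:71569749-71658308, minus) and Gabrb1 (ENSMUSG00000029212, chr5:71658113-72149037, plus) share a cluster on chromosome 5, in which Gabra4 and Gabrb1 overlap head to head by 196 bases and Gabra2 lies 474 kb from Gabra4. Gabrg3 (ENSMUSG00000055026, chr7:56716465-57387188, minus) and Gabra5 (ENSMUSG00000055078, chr7:57407672-57510059, minus) are neighbours on chromosome 7, 20.5 kb apart. Gabrb2 (ENSMUSG00000007653) is at chr11:42419757-42629028 on the plus strand, and Gabra3 (ENSMUSG00000031343) at chrX:72432681-72656848 on the minus strand. The 250 bases before the start sites that RefSeq gives (GRCm38.p6) were searched on both strands for 6 motifs. The octamer ATGCAAAT read by POU factors, the SOX core ACAATG and the CRE TGACGTCA were found in 0 of the 11 windows of the 7 genes, against 1.60%, 10.7% and 1.55% of all 32851 windows. The CCAAT box (CCAAT) was in windows of 5, the GC box (GGGCGG) of 4 and the TATA box (TATAAA) of 2 of the 7 genes. They were in 33.8%, 32.7% and 12.4% of all windows, a share that is not on the same footing, since some genes have several windows and the pair of Gabra3 windows overlap and share a TATA box and a CCAAT box. The windows below are shown for the gene that stood highest in Nos1 cells relative to Lhx6 cells at P5 and for a pair that stood lower, each 5′ to 3′ on the strand of its gene, with these motifs in capitals where they occur. None of these windows touched an annotated exon, although that of Gabrb2 lies inside its longest gene model.
Gabra2, chr5:71095850-71096099, minus strand: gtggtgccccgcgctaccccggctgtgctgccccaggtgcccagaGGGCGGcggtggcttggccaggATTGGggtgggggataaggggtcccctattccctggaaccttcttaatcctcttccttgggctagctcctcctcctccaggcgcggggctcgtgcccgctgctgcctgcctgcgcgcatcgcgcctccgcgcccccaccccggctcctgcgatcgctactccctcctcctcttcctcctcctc
Gabra5, chr7:57510060-57510309, minus strand: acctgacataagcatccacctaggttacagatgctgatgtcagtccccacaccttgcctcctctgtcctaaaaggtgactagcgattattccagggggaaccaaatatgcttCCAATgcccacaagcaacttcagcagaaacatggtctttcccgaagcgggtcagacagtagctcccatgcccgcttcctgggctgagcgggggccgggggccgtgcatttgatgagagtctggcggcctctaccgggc
Gabrb2, chr11:42420190-42420439, plus strand: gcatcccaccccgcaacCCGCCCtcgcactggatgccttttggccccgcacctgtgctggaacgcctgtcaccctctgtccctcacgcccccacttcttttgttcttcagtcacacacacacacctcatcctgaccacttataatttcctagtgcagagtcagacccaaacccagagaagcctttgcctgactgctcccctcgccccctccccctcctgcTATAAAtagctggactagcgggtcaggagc
The Gabra2 window holds a GC box and a CCAAT box on the reverse strand (ATTGG), 70.0% G and C, and 18 CG pairs, against medians of 52.4% and 6 pairs over all windows. That of Gabra5 holds a CCAAT box and 9 CG pairs. The window shown for Gabrb2 holds a GC box, a TATA box and 8 CG pairs. Of the further windows of this gene, the next holds a CCAAT box alone. The last holds none of the motifs, at 36.8% G and C.

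Gabra2 encodes the alpha2 subunit, found on axon initial segments and at many synapses of young neurons. In Nos1 cells it stood at 273 CPM (95% interval 232 to 318, 162 UMIs) at E16.5, 443 CPM (414 to 474) at P1 and 647 CPM (612 to 683) at P5. Lhx6 cells held it at 133 CPM (128 to 138) at E16.5, 99.1 CPM (92.4 to 106) at P1 and 103 CPM (96.5 to 110) at P5. All 3 levels in Nos1 cells were therefore above all 3 in Lhx6 cells, and only the P1 and P5 levels of Lhx6 cells had overlapping intervals. The ratio of Nos1 to Lhx6 cells was 2.05 (1.74 to 2.40) at E16.5, 4.47 (4.06 to 4.93) at P1 and 6.28 (5.77 to 6.84) at P5. From the E16.5 to the P5 library Gabra2 was 2.37 times as high in Nos1 cells (2.01 to 2.81), while in Lhx6 cells the P5 level was 0.774 of the E16.5 level (0.719 to 0.834). The opposite directions were already there between E16.5 and P1, at 1.63 (1.37 to 1.93) in Nos1 cells and 0.746 (0.688 to 0.807) in Lhx6 cells. That shorter step was not checked with other cell filters, and at P1 only 56.3% of cells were kept.

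**Figure D1:**
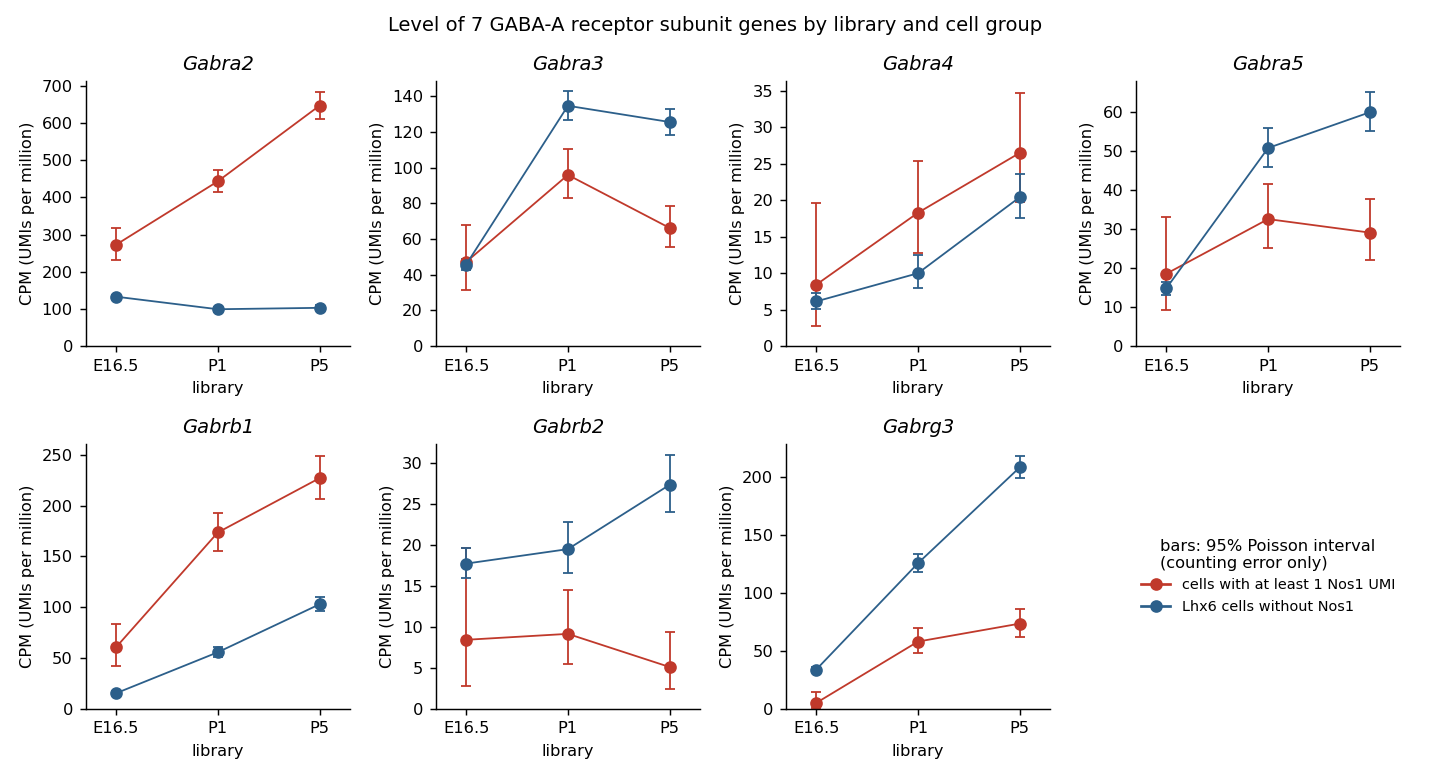
Level of each of the 7 genes (CPM, UMIs of the gene scaled to a common group total, linear axes from 0) in the E16.5, P1 and P5 libraries, for Nos1 cells and for Lhx6 cells without Nos1. Bars are 95% Poisson intervals. Gabra2 reached 647 CPM in Nos1 cells and 103 CPM in Lhx6 cells at P5, whereas Gabrg3 stood at 73.3 and 208 CPM there.

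Gabrb1, which encodes the beta1 subunit, was the other gene higher in Nos1 cells throughout. Its level in Nos1 cells was 60.6 CPM (42.4 to 83.9, 36 UMIs) at E16.5, 174 CPM (156 to 193) at P1 and 227 CPM (207 to 249) at P5. Lhx6 cells held 15.3 CPM (13.7 to 17.1), 55.7 CPM (50.6 to 61.1) and 103 CPM (96.5 to 110). The order of the 6 levels ran from Nos1 cells at P5 and P1 through Lhx6 cells at P5 to Nos1 cells at E16.5, Lhx6 cells at P1 and Lhx6 cells at E16.5, and Nos1 cells at E16.5 and Lhx6 cells at P1 had overlapping intervals. The ratio of Nos1 to Lhx6 cells was 3.96 (2.72 to 5.60), 3.12 (2.70 to 3.60) and 2.21 (1.97 to 2.47), so it was lower at P5 than at P1 while that of Gabra2 was higher. Both groups had more Gabrb1 in the P5 than in the E16.5 library, by 3.75 times (2.67 to 5.42) in Nos1 cells and 6.72 times (5.92 to 7.65) in Lhx6 cells.

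Gabra4, the third gene of the chromosome 5 cluster, encodes the alpha4 subunit of receptors outside synapses. It gave few UMIs, at 8.42 CPM (2.73 to 19.6), 18.3 CPM (12.8 to 25.3) and 26.5 CPM (19.8 to 34.7) in Nos1 cells and 6.12 CPM (5.12 to 7.27), 9.99 CPM (7.92 to 12.4) and 20.4 CPM (17.6 to 23.5) in Lhx6 cells. The groups were separated at P1 alone, where the ratio was 1.83 (1.20 to 2.74). At E16.5 and P5 the ratios of 1.37 (0.439 to 3.29) and 1.30 (0.936 to 1.77) could not be told from 1 at this depth. In the P5 library Gabra4 was 3.15 times its E16.5 level in Nos1 cells (1.27 to 10.1) and 3.33 times in Lhx6 cells (2.65 to 4.20).

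Gabra3, on the X chromosome, encodes the alpha3 subunit of immature synapses. Its level in Nos1 cells was 47.1 CPM (31.3 to 68.1), 96.0 CPM (82.8 to 111) and 66.2 CPM (55.3 to 78.6) from E16.5 to P5, and in Lhx6 cells 45.7 CPM (42.9 to 48.7), 135 CPM (127 to 143) and 126 CPM (118 to 133). The groups could not be told apart at E16.5, with a ratio of 1.03 (0.682 to 1.50), and Nos1 cells were lower at P1 (0.712, 0.607 to 0.832) and P5 (0.527, 0.436 to 0.632). In Lhx6 cells Gabra3 was 2.75 times as high at P5 as at E16.5 (2.52 to 3.00), a difference already present at P1 (2.95 times, 2.70 to 3.22). In Nos1 cells the P5 level was below the P1 level (0.690, 0.548 to 0.867).

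Gabra5 encodes the alpha5 subunit, best known from receptors outside synapses that carry tonic inhibition. In Lhx6 cells it stood at 14.8 CPM (13.2 to 16.5), 50.7 CPM (45.9 to 55.9) and 59.8 CPM (55.0 to 65.0), a ratio of 4.05 between P5 and E16.5 (3.52 to 4.66). In Nos1 cells it stood at 18.5 CPM (9.24 to 33.1), 32.5 CPM (25.0 to 41.5) and 29.0 CPM (22.0 to 37.6), 3 levels with overlapping intervals. The Nos1 to Lhx6 ratio was 1.25 (0.619 to 2.27) at E16.5, 0.641 (0.485 to 0.836) at P1 and 0.485 (0.363 to 0.638) at P5. The E16.5 value in Nos1 cells rested on 11 UMIs in 7.46% of 67 cells, and on the log2 scale its ratio of 0.31 became -0.53 without cells holding an excitatory marker. At P1 the log2 ratio of -0.63 became -1.20 without those cells, and the P5 over E16.5 ratio in Nos1 cells went from 0.62 to 1.47, so that both passed 2-fold.

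Gabrb2 encodes the beta2 subunit, the commonest beta subunit of the adult forebrain. Its level was 8.42 CPM (2.73 to 19.6), 9.14 CPM (5.42 to 14.4) and 5.09 CPM (2.44 to 9.37) in Nos1 cells, with only 5, 18 and 10 UMIs. In Lhx6 cells it was 17.7 CPM (15.96 to 19.6), 19.5 CPM (16.5 to 22.8) and 27.3 CPM (24.1 to 30.9). The intervals overlapped at E16.5, where the ratio was 0.475 (0.153 to 1.12), and were apart at P1 (0.469, 0.271 to 0.766) and P5 (0.186, 0.0883 to 0.349). Lhx6 cells had 1.54 times as much Gabrb2 in the P5 as in the E16.5 library (1.31 to 1.81), and in Nos1 cells the ratio of 0.605 (0.189 to 2.26) could not be told from 1.

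Gabrg3 encodes the gamma3 subunit. In Nos1 cells there were 3 UMIs at E16.5, 5.05 CPM (1.04 to 14.8), followed by 57.9 CPM (47.7 to 69.5) at P1 and 73.3 CPM (61.9 to 86.4) at P5. Lhx6 cells stood at 33.8 CPM (31.3 to 36.3), 125 CPM (118 to 133) and 208 CPM (199 to 217). At each stage the Lhx6 cells were above the Nos1 cells, and the Nos1 cells at P1 and P5 were themselves above the Lhx6 cells at E16.5. The ratio of Nos1 to Lhx6 cells was 0.150 (0.0308 to 0.439), 0.462 (0.377 to 0.561) and 0.353 (0.296 to 0.418). Gabrg3 was higher at P5 than at E16.5 by 6.16 times in Lhx6 cells (5.65 to 6.72), and in Nos1 cells by 14.5 times, with an interval of 4.87 to 71.3 that reflects the 3 UMIs.

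**Figure D2:**
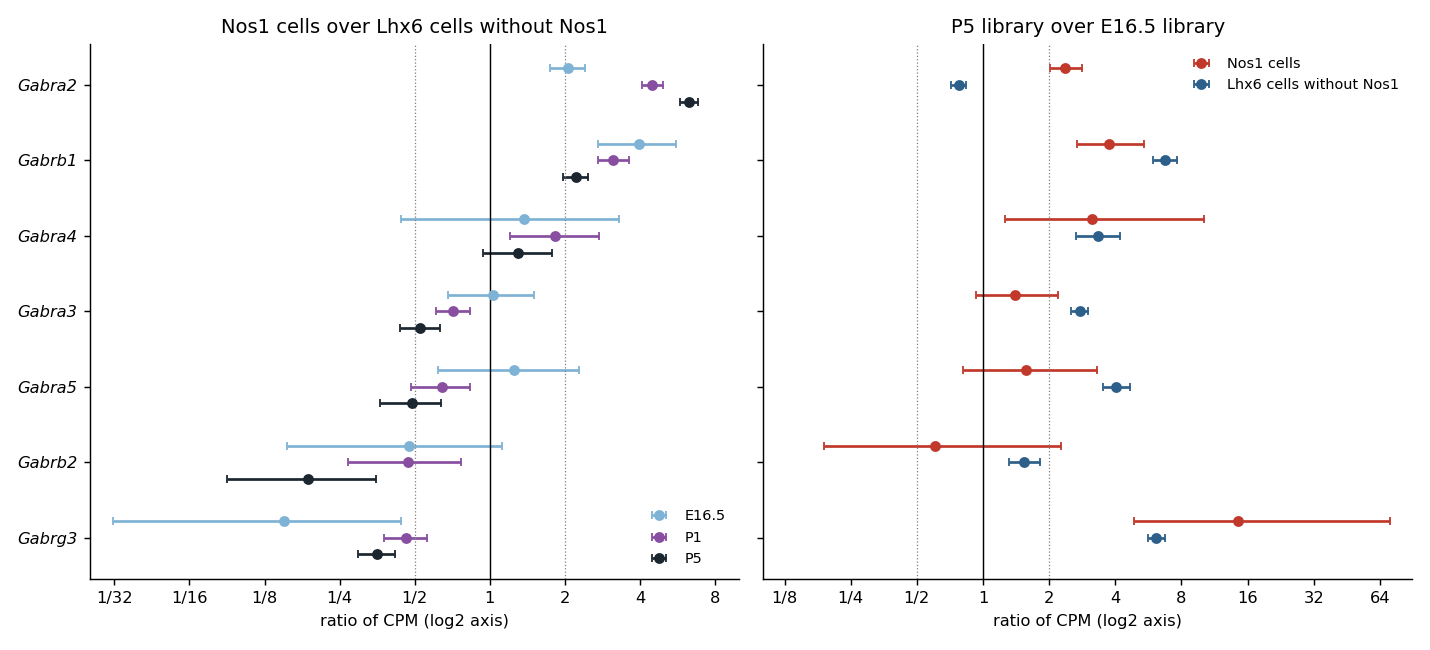
Ratio of CPM on a log2 axis, with exact 95% intervals for counting error: left, Nos1 cells over Lhx6 cells without Nos1 in each library; right, the P5 over the E16.5 library in each cell group. Dotted lines mark 2-fold. Gabra2 and Gabrb1 lay to the right of 1 in all 3 libraries and Gabrg3 to the left, and Gabra2 was on opposite sides of 1 in the right panel, at 2.37 and 0.774.

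Read against all genes, a call was a log2 ratio of (CPM + 1) past 1 in size, among genes with at least 10 UMIs over the 2 groups compared. At E16.5, Gabra2 and Gabrb1 were 2 of 7 members called higher in Nos1 cells, when 6.45% of 13574 genes were, and Gabrg3 was the 1 called lower, when 8.69% were. At P1, the same 2 members were higher, against a background of 4.33%, and Gabrb2 and Gabrg3 were the 2 lower, against 3.72%. Gabrb2 had nearly the same ratio at E16.5 (0.475) as at P1 (0.469). With the 1 CPM added, its log2 ratio of -0.99 at E16.5 fell just short of the call. At P5, Gabra2 and Gabrb1 were again higher, against 4.22%, and Gabra5, Gabrb2 and Gabrg3 were the 3 lower, against 7.08%. The median member had a log2 ratio of 0.31, -0.49 and -0.91 in the 3 libraries, and the median gene -0.05, -0.03 and -0.07. The 0.31 at E16.5 is the value of Gabra5, from 11 UMIs in Nos1 cells, with a ratio interval of 0.619 to 2.27. As given above, that value changed sign without cells holding an excitatory marker. Gabra2 ranked above 93.8%, 99.1% and 99.4% of all genes tested, and Gabrg3 above 0.471%, 3.03% and 2.77%. Without cells holding an excitatory marker, the log2 ratios of Gabra2 were 1.18, 2.19 and 2.64, those of Gabrb1 2.27, 1.60 and 1.13 and those of Gabrg3 -2.05, -1.37 and -1.51, each on its side of the call. Gabra2 and Gabrb1 are in the study's own list of genes of long-range projection neurons and Gabrg3 in its list for non-Martinotti cells. Those lists were drawn from these libraries, so they are not independent evidence for these directions.

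Between the P5 and E16.5 libraries, Gabra3, Gabra4, Gabra5, Gabrb1 and Gabrg3 were the 5 members called higher in Lhx6 cells, when 17.8% of genes were, and 0 members were called lower, when 11.8% were. In Nos1 cells, Gabra2, Gabra4, Gabrb1 and Gabrg3 were the 4 called higher, against 18.2%, and again 0 were called lower, against 14.8%. Gabra4, Gabrb1 and Gabrg3 were thus called in both groups. The median member had a log2 ratio of 1.59 in Lhx6 cells and 1.24 in Nos1 cells, against 0.07 and 0.01 for the median gene. Most of the difference in Lhx6 cells lay between E16.5 and P1 for Gabra3, Gabra5, Gabrb1 and Gabrg3, at 2.95, 3.43, 3.64 and 3.71 times, and the ratio from P1 to P5 was 0.932, 1.18, 1.85 and 1.66. Gabra4 differed in the other order, at 1.63 times from E16.5 to P1 and 2.04 times from P1 to P5. In these shorter steps the median of all genes was itself shifted, by 0.16 in Lhx6 cells and 0.18 in Nos1 cells from E16.5 to P1 and by -0.16 in Nos1 cells from P1 to P5. Relative to that shift, the sign turned only for Gabrb2 from E16.5 to P1 in both groups and for Gabra5 from P1 to P5 in Nos1 cells.

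The share of each class taken by a subunit does not depend on the total of the cell. Gabra2 made up 75.3% (exact 95% interval 69.0 to 81.0) of all alpha UMIs of Nos1 cells at E16.5, 73.0% (70.4 to 75.5) at P1 and 81.4% (79.4 to 83.3) at P5. In Lhx6 cells it made up 62.8% (61.4 to 64.3) at E16.5 and then 29.9% (28.2 to 31.7) and 27.5% (26.0 to 29.0). The difference between the groups was 12.5, 43.1 and 53.9 percentage points. At E16.5 it was 5.77 points when Nos1 cells needed 3 Nos1 UMIs and 20.96 points without the deepest 5% of cells. A stricter cell filter asked for more than 1000 genes and under 5% mitochondrial UMIs, and left 357 Lhx6 cells at P1. With it the Gabra2 share of Lhx6 cells was 66.6%, 43.6% and 26.1%, so the P1 share depended on the filter. With the main filter, the rest of the alpha class in Lhx6 cells was mostly Gabra3, at 21.6%, 40.6% and 33.6% of alpha UMIs, and Gabra5, at 6.99%, 15.3% and 15.98%. In Nos1 cells Gabra3 made up 13.0%, 15.8% and 8.33% and Gabra5 5.12%, 5.35% and 3.65%, and Gabra4 stayed between 2.33% and 5.45% in all 6 groups. The summed alpha level was 362, 607 and 795 CPM in Nos1 cells and 212, 332 and 374 CPM in Lhx6 cells, of which the 4 alpha members held 95.8%, 97.2% and 96.7% and 94.3%, 88.8% and 82.5%.

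Among beta subunits, Gabrb1 made up 34.3% (25.3 to 44.2), 44.8% (41.2 to 48.4) and 50.1% (46.8 to 53.4) of UMIs in Nos1 cells and 10.3% (9.23 to 11.4), 17.1% (15.7 to 18.7) and 25.9% (24.5 to 27.3) in Lhx6 cells. Its share was larger at P5 than at E16.5 in both groups, and the groups differed by 24.0, 27.6 and 24.2 percentage points. Gabrb2 went from 11.9% to 6.00% and 6.87% of beta UMIs in Lhx6 cells and was 4.76%, 2.36% and 1.12% in Nos1 cells. The beta class as a whole was at 177, 388 and 453 CPM in Nos1 cells and 149, 325 and 398 CPM in Lhx6 cells, so its sum differed less between the groups than its make-up did. Gabrg3 made up 4.76% (0.993 to 13.3), 24.8% (20.9 to 29.0) and 34.0% (29.5 to 38.7) of gamma UMIs in Nos1 cells and 25.5% (23.9 to 27.1), 44.2% (42.2 to 46.3) and 62.9% (61.1 to 64.6) in Lhx6 cells. Divided by exon length, the share of Gabra2 became 62.2%, 58.7% and 71.0% in Nos1 cells and 47.5%, 18.3% and 17.3% in Lhx6 cells, and that of Gabrb1 19.8%, 27.7% and 32.2% and 5.11%, 8.90% and 14.1%. The UMIs tag transcript ends, so that a long exon does not by itself give more of them and the undivided shares are the main values.

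**Figure D3:**
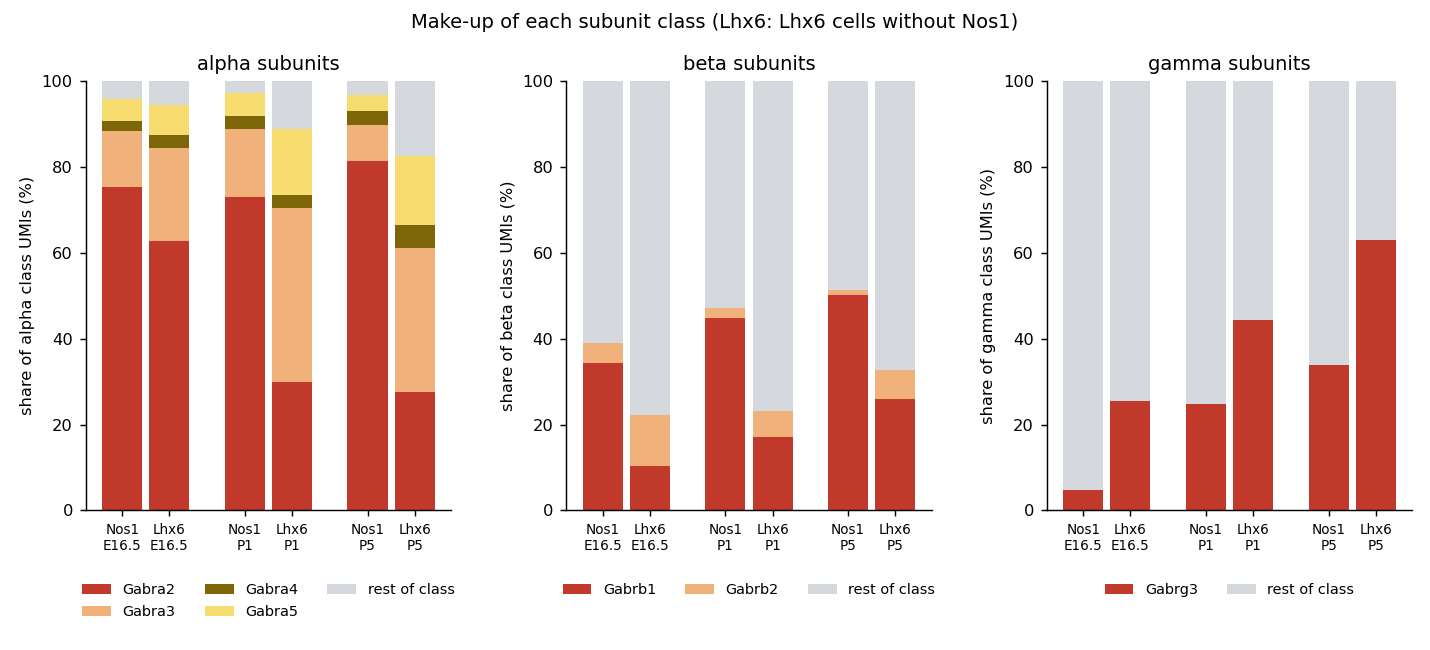
Share of the UMIs of all alpha, beta and gamma subunit genes in the files (%, stacked to 100) taken by each member and by the rest of its class, in Nos1 cells and Lhx6 cells of each library. The Gabra2 share was 81.4% in Nos1 cells and 27.5% in Lhx6 cells at P5, and the Gabrg3 share 34.0% and 62.9%.

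The same groups were compared by the share of cells with at least 1 UMI, after each cell was thinned to 2000 UMIs and shallower cells were left out (2, 78 and 133 Nos1 cells and 169, 291 and 201 Lhx6 cells). Gabra2 was found in 33.8% (22.6 to 46.6), 57.6% (52.3 to 62.8) and 67.1% (62.4 to 71.7) of Nos1 cells and in 18.4% (17.1 to 19.8), 15.1% (13.2 to 17.1) and 17.9% (16.1 to 19.9) of Lhx6 cells. Unthinned, the shares were 68.7%, 72.4% and 80.3% and 37.4%, 25.3% and 32.3%. Gabrb1 was found in 10.8% (4.44 to 20.9), 28.7% (24.0 to 33.7) and 36.2% (31.6 to 41.1) of Nos1 cells and in 2.35%, 8.14% and 18.1% of Lhx6 cells, or unthinned 25.4%, 48.4% and 51.6% and 7.04%, 16.7% and 33.8%. For Gabrg3 the thinned shares were 1.54%, 6.74% and 10.1% in Nos1 cells and 5.84%, 17.0% and 31.3% in Lhx6 cells, and unthinned 4.48%, 12.7% and 16.3% and 15.6%, 31.4% and 52.0%. No cell type in the sort is known to lack the receptor, and gates on microglial, endothelial, astrocyte and oligodendrocyte precursor markers each found fewer than 10 cells, so the level of free RNA was not tested.

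Within Nos1 cells, the levels differed with the number of Nos1 UMIs in the cell. At P5, Gabra2 stood at 201 CPM (155 to 257) in the 81 cells with exactly 1 Nos1 UMI, 674 CPM in the 29 cells with 2 and 734 CPM (692 to 777) in the 437 cells with 3 or more. At P1 it was 240 CPM (203 to 281), 409 CPM and 555 CPM (514 to 598) in 126, 33 and 275 cells, and at E16.5 210 CPM (163 to 267), 383 CPM and 329 CPM (250 to 424) in 38, 13 and 16 cells. Cells with 1 Nos1 UMI therefore lay between the Lhx6 cells and the cells with more Nos1. Gabrg3 went the other way at P5, from 211 CPM (163 to 268) in cells with 1 Nos1 UMI, an interval that includes the 208 CPM of Lhx6 cells, to 46.1 CPM (36.1 to 58.0) in cells with 3 or more. At P1 it was 115 CPM (90.4 to 145) and 24.0 CPM (16.1 to 34.4). Gabra5 showed the same order, at 63.8 CPM (39.0 to 98.6) and 22.7 CPM (15.9 to 31.5) at P5 and 59.1 CPM (41.8 to 81.2) and 14.9 CPM (8.82 to 23.5) at P1. At E16.5 the 16 cells with 3 or more Nos1 UMIs held no Gabrg3 UMI, which allows up to 20.6 CPM. Their Gabra5 level of 50.2 CPM (22.9 to 95.2) was above that of cells with 1 Nos1 UMI, at 6.18 CPM (0.749 to 22.3). Those Gabra5 levels rested on 9 UMIs in 18.75% of 16 cells and 2 UMIs in 5.26% of 38 cells. Their intervals leave out the spread between cells, and the part of cells with an excitatory marker was not tested here. Gabrb1 in cells with 1 and with 3 or more Nos1 UMIs was 30.9 and 106 CPM at E16.5, 129 and 196 CPM at P1 and 112 and 256 CPM at P5.

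**Figure D4:**
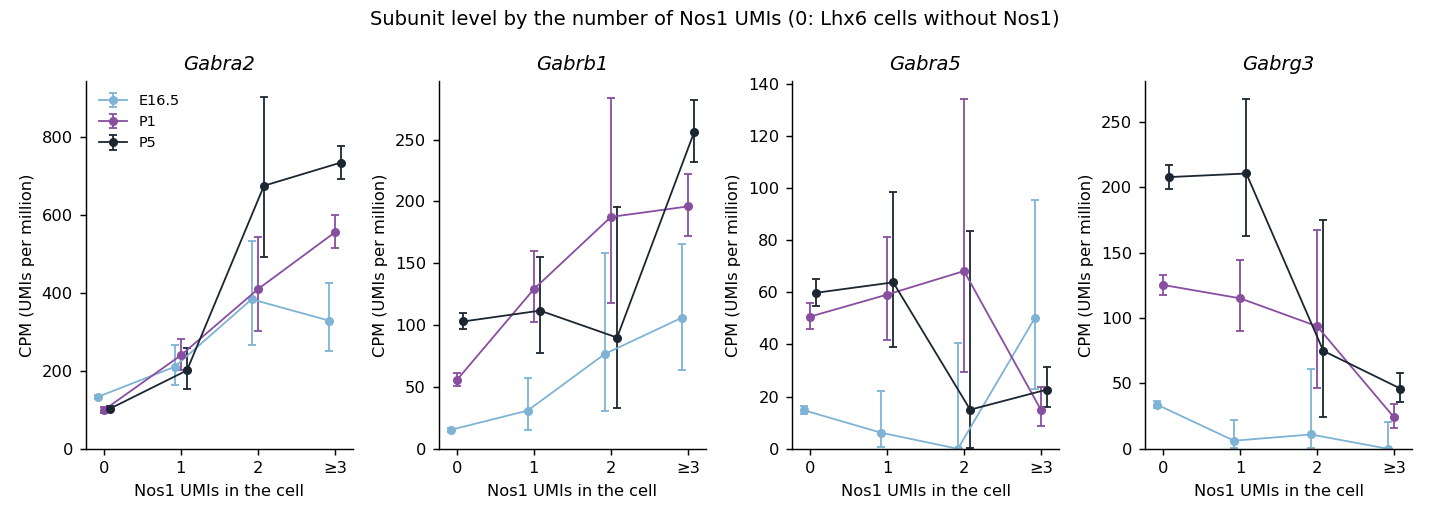
Level (CPM, linear axes from 0, 95% Poisson intervals) of Gabra2, Gabrb1, Gabra5 and Gabrg3 by the number of Nos1 UMIs in the cell, in the 3 libraries. Cells with 0 are the Lhx6 cells without Nos1. At P5 Gabra2 was 201 CPM with 1 UMI and 734 CPM with 3 or more, and Gabrg3 211 and 46.1 CPM.

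The Nos1 cells that also held a Chodl UMI, 15, 224 and 328 cells, had Gabra2 at 299, 523 and 739 CPM, and those without had 267, 358 and 493 CPM. Gabrg3 was 26.5 and 40.7 CPM with Chodl at P1 and P5, with no UMI in the 15 cells at E16.5, and 6.11, 91.6 and 128 CPM without. Split by an Lhx6 UMI, the Nos1 cells without one numbered 18, 74 and 155. Gabra2 was 296, 441 and 630 CPM with Lhx6 and 225, 461 and 713 CPM without, with intervals that overlapped at each stage. Gabrb1 was 75.3, 163 and 227 CPM with Lhx6 and 30.7, 250 and 228 CPM without, with intervals that overlapped at E16.5 and P5 and not at P1. Gabra5 at P1 was 25.9 CPM (18.9 to 34.7) with Lhx6 and 81.8 CPM (49.2 to 128) without. Gates on Dach1 and Lypd1, both within Nos1 cells, gave Gabra2 levels of 578 CPM with Dach1 and 706 CPM with Lypd1 at P5, from 42 and 236 cells. At E16.5 Gabra2 was 421 CPM (331 to 529) in the 23 Nos1 cells with Dach1 and 210 CPM (169 to 259) in the 44 without. At P1 it was 484 CPM (422 to 552) with Dach1 and 431 CPM (399 to 466) without, with overlapping intervals.

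The Lhx6 cells were not uniform either. Those without a Sst UMI had less Gabra2 than those with one, at 66.1 CPM (58.2 to 74.8) against 147 CPM (142 to 153) at E16.5 and 44.5 CPM (34.7 to 56.1) against 113 CPM (105 to 121) at P1, and the intervals overlapped at P5, at 90.4 and 106 CPM. They had more Gabrg3 at each stage, 61.1, 157 and 325 CPM against 27.8, 117 and 177 CPM. Cells with a Tac1 UMI had the highest Gabrg3 of the gates within Lhx6 cells at P1, at 210 CPM (170 to 258), and at P5 stood at 320 CPM (276 to 368), together with Gabrb2 at 62.9 CPM and Gabra5 at 86.1 CPM. In cells with an Nr2f2 UMI, Gabra2 was 164 CPM (155 to 175) at E16.5, above the 133 CPM of all Lhx6 cells, and then 86.1 CPM (73.8 to 99.8) and 57.7 CPM (48.7 to 67.8), the last below all Lhx6 cells. Their Gabrg3 was 26.95, 89.5 and 124 CPM, and their Gabrb1 was 13.2, 84.6 and 152 CPM. Cells with Pdyn, 334 at P5, had Gabrb1 at 45.0 CPM and Gabra5 at 25.2 CPM. With a Reln UMI, Gabra2 was 88.3 CPM and Gabrg3 163 CPM at P5, and without one 130 and 292 CPM. The Lhx6 cells that lacked Mef2c, a transcription factor of maturing interneurons, numbered 360, 101 and 193. Their Gabra2 was 265 CPM (242 to 290) at E16.5 and 292 CPM (230 to 365) at P1, against 120 and 92.6 CPM with Mef2c, and at P5 the levels were 99.6 and 103 CPM. Cells with a Cbln4 UMI, 75 at E16.5, also stood high there, with Gabra2 at 281 CPM and Gabrg3 at 14.6 CPM. In the cells without Mef2c, Gabrg3 was 4.35 CPM (1.88 to 8.58) at E16.5, against 36.6 CPM with Mef2c. These gates overlap, rest on a UMI being caught, and are named by their gene, not by a cell type.

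Cells with neither Lhx6 nor Nos1, 616, 461 and 559 in the 3 libraries, had Gabra2 at 185, 186 and 124 CPM, between the other groups at each stage. Outside both groups, 50 Meis2 cells without Neurod6 at E16.5 had Gabra2 at 266 CPM and Gabra5 at 77.0 CPM. The 20 to 23 cells with 3 or more excitatory marker UMIs had Gabra2 at 111, 152 and 80.3 CPM and Gabra5 at 59.1, 116 and 184 CPM. For comparison, Gabra5 in Nos1 cells stood at 18.5, 32.5 and 29.0 CPM.

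The list of other genes of the receptor, its scaffold and its transport was read by the same call. Of 12 other subunit genes, 5 or 6 had enough UMIs, of which 1, 2 and 2 were higher and 0, 1 and 2 lower in Nos1 cells at E16.5, P1 and P5. Over all genes tested, 6.45%, 4.33% and 4.22% were higher and 8.69%, 3.72% and 7.08% lower. Gabrg1, the gamma1 gene 115 kb from Gabra2 on chromosome 5, stood at 8.42, 53.8 and 47.4 CPM in Nos1 cells and 7.91, 12.2 and 5.62 CPM in Lhx6 cells. Its ratio was 1.06 (0.341 to 2.53), 4.40 (3.31 to 5.85) and 8.43 (5.94 to 12.1), so at P5 the genes Gabrg1, Gabra2 and Gabrb1 of this cluster were all called higher in Nos1 cells and Gabra4, between them, was not. Gabrq, the theta gene 168 kb from Gabra3 on the X chromosome, was higher in Nos1 cells at 12.8 (3.60 to 37.5), 4.88 (1.93 to 12.6) and 3.14 times (1.75 to 5.56), from 5, 12 and 22 UMIs, while the ratio of Gabra3 was 1.03 or lower. On chromosome 7 the neighbours Gabra5 and Gabrg3 were both called lower at P5.

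Of 27 scaffold, assembly and transport genes, 1, 2 and 1 were higher and 0, 1 and 2 lower in Nos1 cells, against 6.45%, 4.33% and 4.22% higher and 8.69%, 3.72% and 7.08% lower over all genes tested. Their median log2 ratio was 0.13, 0.00 and -0.19. Hap1, which carries receptors back to the surface, was at 28.6, 82.3 and 258 CPM in Nos1 cells and 15.4, 38.7 and 108 CPM in Lhx6 cells, a ratio of 1.86 (1.07 to 3.02), 2.13 (1.75 to 2.58) and 2.38 (2.14 to 2.66). Kctd12, an auxiliary subunit of GABA-B receptors, was at 67.3, 81.2 and 38.2 CPM in Nos1 cells and 105, 226 and 188 CPM in Lhx6 cells, a ratio of 0.639, 0.359 and 0.203 (0.159 to 0.256 at P5). It is among the 27 genes and among those counted as lower at P1 and P5. Between the P5 and E16.5 libraries, 8 of the 27 were higher and 1 lower in Lhx6 cells, where 17.8% and 11.8% of all genes were. In Nos1 cells 5 were higher and 2 lower, beside 18.2% and 14.8% of all genes. Hap1 was 7.02 times as high in Lhx6 cells (6.19 to 7.98) and 9.01 times in Nos1 cells (5.57 to 15.6). Rdx, whose product radixin anchors alpha5 receptors to actin, was lower at P5, at 0.271 (0.244 to 0.299) in Lhx6 cells and 0.336 (0.254 to 0.445) in Nos1 cells. The palmitoyltransferase gene Zdhhc3 was 2.28 and 2.25 times as high, and Iqsec3, an exchange factor of inhibitory synapses, 2.12 and 2.24 times.

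Genes of the other inhibitory receptors were read by the same call. Gabbr2, the signalling subunit of the GABA-B receptor, was at 32.3, 177 and 419 CPM in Lhx6 cells and 38.7, 155 and 223 CPM in Nos1 cells, 13.0 times (11.96 to 14.1) and 5.75 times (3.78 to 9.17) as high at P5 as at E16.5. Of the 2 genes of the GABA-B receptor itself, 0 were called between the groups in any library. Kctd12, its auxiliary subunit, was counted above with the scaffold genes. It was called lower in Nos1 cells at P1 and P5, with log2 ratios of -1.47 and -2.27. Over all genes tested, 6.45%, 4.33% and 4.22% were called higher and 8.69%, 3.72% and 7.08% lower in Nos1 cells. Glrb, the glycine receptor subunit that binds gephyrin, was 4.11 times (3.66 to 4.63) as high in Lhx6 cells and 2.59 times (1.62 to 4.34) in Nos1 cells, and its ratio between the groups at P5 was 1.01 (0.852 to 1.19). Of 5 glycine receptor genes, 4 had enough UMIs, and 1 was called lower in Nos1 cells at E16.5, when 8.69% of genes were, and 0 at P1 and P5. That gene was Glra2, named after its values were seen, at 25.2 CPM in Nos1 cells and 81.6 CPM in Lhx6 cells, a ratio of 0.309 (0.173 to 0.512) from 15 and 1732 UMIs.

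The profile of each member over 12 groups (in each library Nos1 cells, Lhx6 cells with and without Reln, and cells with neither gene) was set beside those of 10826 genes by Pearson's r of log2(CPM + 1). The groups share libraries and depth, so r is a description. Closest to Gabra2 were Ptn, a secreted growth factor gene (r = 0.97), Arhgap28 (0.96) and Trib2 (0.96). Closest to Gabrb1 were Thsd7b (0.98), Dgkb (0.98) and Cdkl1 (0.98), and to Gabra3 Nav2 (0.99), Slc35f1 (0.97) and Vcl (0.97). Gabra5 was closest to Tnr (0.95), AI593442 (0.95) and Lgi2 (0.94), Gabra4 to Eml6 (0.95) and Rapgef6 (0.93), Gabrb2 to Crybg3 (0.93) and Rpgrip1l (0.92), and Gabrg3 to Foxo3 (0.98) and Zfp426 (0.97). Among the members themselves, r was highest for the neighbours Gabra5 and Gabrg3 (0.82) and for the overlapping Gabra4 and Gabrb1 (0.80), and lowest for Gabra2 with Gabrb2 (-0.68). Gabra2 had r = 0.49 with Gabrb1 and -0.35 with Gabrg3.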

How the data were processed

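The deposited files held whole-number counts of UMIs for each gene and cell. Per the labels and methods, the authors sorted GFP+ cells, made 10x libraries and ran Cell Ranger (3.1.0 for E16.5 and P5, 3.0.2 for P1) on GRCm38 with GENCODE M21. From these counts, cells with more than 700 genes and under 10% mt- UMIs were kept, UMIs were summed over Nos1 cells and Lhx6 cells of each library, and CPM of the group total were computed (Python 3.11.15, numpy 2.4.6, scipy 1.17.1, pandas 2.3.3). Intervals are 95% exact Poisson, Clopper-Pearson or conditional binomial, and cover counting error only. A call was an absolute log2 ratio of (CPM + 1) over 1 among genes with at least 10 UMIs over both groups. The code was tested on simulated data. Alternatives changed the cell filter, gates, scaling, pseudocount (0.1 and 10 CPM) and class denominator. Named were all members, other listed genes past 2-fold in at least 2 libraries or in both groups between P5 and E16.5 (at most 12), and the 3 genes most like each member. The members, gates and lists were chosen with earlier results of these data known, and the gates by Nos1 UMIs, and with or without Lhx6, Sst, Reln or Mef2c, after seeing the data. Other subunits and some genes the rules picked enter totals and counts and are not reported here.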

Additional observations from a re-analysis of the deposited data

Results flagged for a closer look

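Some genes stood in opposite directions in the 2 cell groups when libraries were compared, each with an interval of counting error that left out a ratio of 1. These differences between groups were not tested, since there is 1 library for each stage.

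Gabra2 was lower in Lhx6 cells, with a log2 ratio of -0.42 from E16.5 to P1 and -0.37 from E16.5 to P5, and higher in Nos1 cells, at 0.70 and 1.24. The direction in Lhx6 cells is that of the whole group. By the levels given above, Lhx6 cells with a Sst UMI had less Gabra2 at P5 than at E16.5, and those without one had more. Gabrg1 was lower in the P5 than in the E16.5 library in Lhx6 cells, at -0.43 from 52 and 168 UMIs, and higher in Nos1 cells, at 2.36 from 93 and 5 UMIs. From E16.5 to P1 it was higher in both, by a ratio of 1.55 and 6.40. Kctd12 was higher at P5 than at E16.5 in Lhx6 cells, at 0.83, and lower in Nos1 cells, at -0.80. Its shorter steps did not turn: from E16.5 to P1 the ratio was 2.15 in Lhx6 cells and 1.21 (0.849 to 1.75) in Nos1 cells, and from P1 to P5 it was 0.830 and 0.470. At E16.5 the excitatory markers stood at 545 CPM in Nos1 cells and 6.92 CPM in Lhx6 cells; without the cells that held them, Gabra2 was at -0.36 in Lhx6 cells and 1.10 in Nos1 cells from E16.5 to P5.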

How the results depend on the processing

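The count of members past 2-fold between Nos1 and Lhx6 cells was 3, 4 and 5 at E16.5, P1 and P5 and moved by over 1.5 times in 2 alternatives: to 5 at E16.5 when Nos1 cells needed 3 UMIs, which left 16 cells and took calls over all genes from 2055 to 4450, and to 2 at P1 with a pseudocount of 10, which took them from 1049 to 236. The 273 alternative log2 ratios of members past 2-fold all kept their sign, and 262 stayed past 2-fold. Of 182 for members within 2-fold, 169 kept their sign and 23 passed 2-fold. Both counts include alternatives that could not turn a sign. Another pseudocount never can, and a gate on one cell group leaves the library ratio of the other group as it was. A filter on total UMIs kept the same cells at P1 and P5. Ratios from E16.5 to P1 and from P1 to P5 were not put through the alternatives. Without the deepest 5% of cells, Gabra5 at E16.5 went from 0.31 to -0.86.

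The difference in Gabra2 share of alpha UMIs, 12.5, 43.1 and 53.9 points, became 5.77, 53.3 and 58.6 with 3 Nos1 UMIs, and 20.96 at E16.5 and 47.5 at P1 without the deepest cells. It became 49.5 at P1 and 60.0 at P5 with Chodl, and at P5 56.7 with stricter cell filters and 50.8 over listed members alone. The difference in Gabrb1 share of beta UMIs, 24.0, 27.6 and 24.2 points, became 14.6, 18.8 and 18.0 per exon length and 41.4, 20.9 and 18.8 over listed members alone. It became 33.5 at P1 and 28.5 at P5 with 3 Nos1 UMIs, 37.6 at E16.5 and 27.8 at P5 with Chodl, 32.0 at P1 without the deepest cells and 35.3 at P1 as a mean over cells. Every one kept its sign, and the causes were not tested.

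Over all genes, calls between Nos1 and Lhx6 cells numbered 2055, 1049 and 1516 and ranged from 334, 236 and 417 (pseudocount 10) to 5456, 1793 and 2184 (Nos1 with Chodl, 3 Nos1 UMIs and Nos1 with Chodl). Between P5 and E16.5 they numbered 4348 in Lhx6 cells and 3638 in Nos1 cells, and 2027 and 1926 with a pseudocount of 10. Each ratio between Nos1 and Lhx6 cells is within a library; the 3 libraries are 3 stages, and no test over these pairs was run. The 67 Nos1 cells at E16.5 limit every value there.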
